A study of Homo sapiens with 9 samples.

Results

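A set of 10 genes of the AP-1 and immediate early response was followed through RNA-seq counts of OVCAR3 cells with altered *CTCFL*. They were taken as a fixed list of 10 symbols, each found under 1 Ensembl identifier among the 60660 genes of the count matrix. The list holds 4 FOS family genes (*FOS*, *FOSB*, *FOSL1*, *FOSL2*), 3 JUN family genes (*JUN*, *JUNB*, *JUND*) and the early response genes *EGR1*, *IER2* and *IER3*. The 10 genes all passed the filter on low counts, which kept 17794 genes for testing.

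FOS and JUN proteins are basic leucine zipper (bZIP) transcription factors. FOS proteins bind DNA mainly as dimers with JUN proteins, whereas JUN proteins can also pair with each other, and the dimers form AP-1. Growth factors, serum and stress act through MAP kinases to switch on *FOS*, *JUN*, *EGR1* and related genes within minutes and without new protein synthesis. *FOSL1* and *FOSL2* are induced more slowly and more durably, and *FOSL1* is itself an AP-1 target gene. In carcinoma cells AP-1 drives genes of invasion, matrix breakdown and inflammation.

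OVCAR3 is an established line of human epithelial ovarian cancer, and *CTCFL* (BORIS) encodes a paralog of the chromatin factor CTCF that is normally made in the testis. The 9 libraries fell into Control, CTCFL-OE and CTCFL-KD groups of 3 biological replicates. Control cells received a LacZ plasmid and CTCFL-OE cells a *CTCFL* plasmid, both by transient transfection with 2 µg of plasmid and harvest at 48 h. CTCFL-KD RNA came from a separate, earlier knockdown experiment, and no control library of that experiment was analysed here. The knockdown and the experiment it came from therefore cannot be told apart. The cells of every group grew with 20% serum and 0.01 mg/ml insulin. The labels name no stimulation or serum withdrawal, so the values below are levels in growing cells and not the course of an induction. In bulk RNA, fewer cells with a transcript and less of it per cell cannot be told apart.

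Total counts per library lay between 14332622 and 24490080, and 3 counts corresponded to 0.122 to 0.209 CPM before TMM scaling. Levels below are in CPM, counts scaled to a common library size with TMM factors. *CTCFL* itself was low, with 6 to 10 counts in Control, 34 to 72 under CTCFL-OE and 0 or 1 under CTCFL-KD. Mitochondrial genes took 6.16 to 6.52% of counts in Control, 7.40 to 14.9% under CTCFL-OE and 7.80 to 11.8% under CTCFL-KD. The ovarian epithelial genes *PAX8* and *WT1* averaged 576 and 72.8 CPM in Control. The 11 epithelial markers summed to 6060 to 6183 CPM in Control, 5228 to 5639 under CTCFL-OE and 10249 to 17355 under CTCFL-KD, and 8 of them passed the test as higher and 2 as lower in CTCFL-KD, where 21.4% and 16.8% of all genes did. The 10 fibroblast markers summed to 27.9 to 33.6 CPM in Control, 24.8 to 44 under CTCFL-OE and 37.7 to 42.8 under CTCFL-KD. *COL1A1* made up most of that sum, at 29.8 CPM in Control, 33.5 under CTCFL-OE and 23.3 under CTCFL-KD, and did not pass the test in either comparison with Control. *COL1A2* had 0 counts in each Control library, 0 to 2 under CTCFL-OE and 156 to 247 under CTCFL-KD, and it and *POSTN* (1 to 5 counts a Control library and 9 to 18 a CTCFL-KD library) passed as higher in CTCFL-KD, while *COL3A1* was at 0 in Control and CTCFL-OE and at 8 to 9 counts under CTCFL-KD. The 10 blood and endothelial markers summed to 7.50 to 7.93, 9.88 to 11.1 and 7.45 to 9.92 CPM. Of the 4 tested, 2 passed as higher and 1 as lower in CTCFL-KD, where 21.4% and 16.8% of all genes did. *CD14*, among the higher, had 2 to 4 counts a Control library and 22 to 34 a CTCFL-KD library. *PECAM1*, the lower, had 36 to 45 and 3 to 7 counts. CTCFL-KD replicate 1 stood apart from replicates 2 and 3 by transcript length. Its median log2 ratio to their mean was 0.10, 0.21, 0.22, -0.05 and -0.51 from the lowest to the highest quintile of transcript length. Its TMM factor was 0.775, against 0.945 to 1.09 in the other libraries. The part of these differences in the results below was not tested, and the values that CTCFL-KD replicate 1 moved most are also given without it.

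Start-site sequences from RefSeq (GRCh38.p14, 250 bases before to 50 after the start) were found for 8 of the 10 genes. *FOSL1* and *IER3* had no entry in the set of start-site sequences used here. The sequences of 4 are shown 5′ to 3′ because the results turn on their genes, of which *JUNB*, *FOSL2* and *JUN* passed the test in CTCFL-KD and *EGR1* lay just outside it. Capitals mark matches to the motifs named after them.

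FOSL2: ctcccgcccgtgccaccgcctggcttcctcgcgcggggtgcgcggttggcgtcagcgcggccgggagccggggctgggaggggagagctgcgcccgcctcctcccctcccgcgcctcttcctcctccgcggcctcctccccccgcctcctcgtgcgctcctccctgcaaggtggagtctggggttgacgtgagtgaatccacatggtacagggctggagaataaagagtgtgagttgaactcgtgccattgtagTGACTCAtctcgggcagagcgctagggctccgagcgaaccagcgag

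JUNB: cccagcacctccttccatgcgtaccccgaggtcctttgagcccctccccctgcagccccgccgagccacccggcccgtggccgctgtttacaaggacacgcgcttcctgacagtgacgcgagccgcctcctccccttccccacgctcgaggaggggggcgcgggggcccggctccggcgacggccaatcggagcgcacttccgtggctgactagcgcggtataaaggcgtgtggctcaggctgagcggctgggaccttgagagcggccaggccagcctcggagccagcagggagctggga

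JUN: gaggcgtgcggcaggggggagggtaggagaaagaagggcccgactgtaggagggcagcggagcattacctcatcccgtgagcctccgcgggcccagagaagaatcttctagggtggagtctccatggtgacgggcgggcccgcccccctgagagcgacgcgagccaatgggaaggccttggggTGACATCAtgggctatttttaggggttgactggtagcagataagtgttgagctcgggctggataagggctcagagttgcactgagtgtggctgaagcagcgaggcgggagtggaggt

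EGR1: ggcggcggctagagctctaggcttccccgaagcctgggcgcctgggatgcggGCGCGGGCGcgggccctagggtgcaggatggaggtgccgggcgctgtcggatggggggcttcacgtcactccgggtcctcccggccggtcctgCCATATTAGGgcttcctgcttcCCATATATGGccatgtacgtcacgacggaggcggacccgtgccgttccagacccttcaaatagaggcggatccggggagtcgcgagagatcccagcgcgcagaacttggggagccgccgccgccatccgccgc

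The regions are chr2:28392608-28392907 on the plus strand for *FOSL2*, chr19:12791236-12791535 on the plus strand for *JUNB*, chr1:58783998-58784297 on the minus strand for *JUN* and chr5:138465229-138465528 on the plus strand for *EGR1*. The motifs, searched on both strands, were the AP-1 site TGANTCA, the variant TGACATCA of the *JUN* gene, the cyclic AMP element TGACGTCA, the EGR site GCGNGGGCG, a CTCF-type core AGNGGGC and the CArG box, the site of serum response factor. They were found in 7.71, 2.61, 1.85, 9.43, 30.4 and 1.29% of 35116 start-site windows of the same length. *FOSL2* held 1 AP-1 match from 4 to 10 bases after the start, and *JUN* held 1 TGACATCA match at -67 to -60. *EGR1* held 2 CArG boxes, at -105 to -96 and -83 to -74, and 1 EGR match at -198 to -190. The *JUNB* window had no match to any of the 6 motifs, and neither did the windows of *FOS* and *FOSB*. Sequence beyond the windows was not searched, so sites further from the start would be missed. *JUND* had 1 cyclic AMP element and 1 CTCF-type core, and *IER2* had 3 CTCF-type cores. A match is a stretch of letters and says nothing of a bound factor in these cells.

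In Control cells the AP-1 transcripts were mostly *FOSL2* and the JUN family, while *FOS* and *FOSB* were low. Per kilobase of exon, *IER3* had the highest level at 42.7 ± 1.24 CPM per kb (SD, n = 3) and *JUND* had 40.9 ± 2.70, and their ranges overlapped. *JUNB* followed at 35.6 ± 2.11, *FOSL2* at 30.4 ± 0.814 and *JUN* at 21.3 ± 1.09 CPM per kb, with no overlap between neighbours. *IER2* and *FOSL1*, at 7.60 ± 0.737 and 6.16 ± 0.871 CPM per kb, overlapped. Below them came *EGR1* at 4.31 ± 0.325, *FOS* at 1.55 ± 0.176 and *FOSB* at 0.214 ± 0.0306 CPM per kb. This order depends on the length used. With the median transcript length in place of the exon union, an alternative added after the data were seen, *JUND* had 65.0 and *FOSL2* 64.7 CPM per kb, above *IER3* at 44.6 and *JUNB* at 35.6, and *FOS* at 6.04 was above *EGR1* at 4.31. *FOSB* was the bottom of the measured range, with 20 to 31 counts per Control library.

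**Figure D1:**
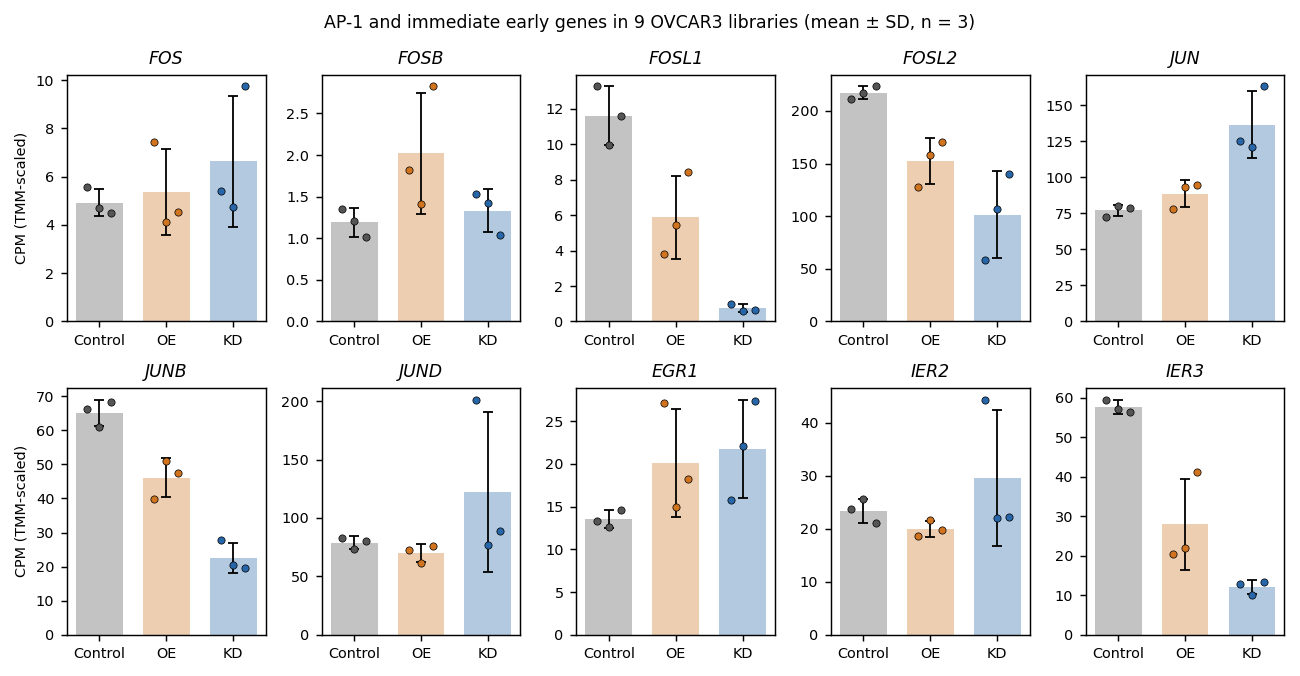
Level of the 10 genes in each of the 9 libraries, in CPM on a linear axis, with a panel per gene. Points are libraries, and bars give the mean ± SD of each of the 3 groups. *FOSL1*, *FOSL2*, *JUNB* and *IER3* lie below Control in both CTCFL-OE and CTCFL-KD, and *JUN* lies above it in CTCFL-KD.

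The comparison of CTCFL-KD with Control asked which transcripts differ when *CTCFL* is reduced. *FOSL1*, *IER3*, *JUNB* and *FOSL2* fell and *JUN* rose, while *FOS*, *FOSB*, *JUND*, *EGR1* and *IER2* did not pass the test. A gene passed at an adjusted p under 0.05 in the quasi-likelihood test of edgeR, with Benjamini-Hochberg adjustment over all genes, and a gene whose level also differed by over 2-fold was a DEG. Of the 10 genes, 4 passed as lower, against 16.8% of all genes tested, and 1 as higher, against 21.4%. There were 4 DEGs, against 23.2% of all genes. The median log2 fold change was 0.24 over the 10 genes and 0.08 over all genes tested. The 2 groups did not overlap for 6 of the 10 genes, against 56.3% of all genes, so these shares are to be read against a comparison in which much of the transcriptome differed.

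*FOSL1* (chr11:65892049-65900573, minus strand, as all gene positions here from GENCODE 44 on GRCh38) encodes FRA-1, the FOS protein most tied to invasive growth of carcinoma cells. Its levels were 13.3, 9.99 and 11.6 CPM in Control and 0.992, 0.595 and 0.657 CPM in CTCFL-KD, which rested on 11, 10 and 12 counts. Every CTCFL-KD library was far below every Control library. The gene was 15.9-fold lower in CTCFL-KD (log2 fold change -3.99, SE 0.35, adjusted p = 2.1e-05, edgeR).

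*IER3* (chr6:30743199-30744548, minus strand) encodes a short-lived protein that is induced by growth factors and stress and acts on survival and ERK signalling. It had 59.6, 57.2 and 56.3 CPM in Control and 12.9, 10.1 and 13.5 CPM in CTCFL-KD, with narrow groups on both sides. It was 4.74-fold lower (log2 fold change -2.25, SE 0.27, adjusted p = 0.000142, edgeR). *JUNB* (chr19:12791486-12793315, plus strand), a JUN protein that often restrains the activity of JUN, had 66.3, 60.8 and 68.3 CPM in Control and 27.7, 20.5 and 19.4 CPM in CTCFL-KD. The groups did not overlap, and *JUNB* was 2.90-fold lower (log2 fold change -1.53, SE 0.19, adjusted p = 0.000163, edgeR). *JUNB* lies within the span of *HOOK2* on the opposite strand, and *IER3* overlaps 2 antisense RNAs with at most 7 counts a library. The strand setting of the counting is not given in the sources used here, so reads of *JUNB* and *HOOK2* (444 to 844 counts a library) cannot be told apart with certainty.

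*FOSL2* (chr2:28392448-28417317, plus strand), which encodes FRA-2 and was the dominant FOS family transcript, varied more within CTCFL-KD. It had 212, 217 and 223 CPM in Control and 58.0, 107 and 140 CPM in CTCFL-KD, and replicate 1 was the lowest library. The fall was 2.14-fold (log2 fold change -1.10, SE 0.28, adjusted p = 0.0101, edgeR). Without CTCFL-KD replicate 1, the log2 fold change was -0.82 (adjusted p = 0.00195, edgeR), which passed the test but was under the 2-fold threshold of a DEG.

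*JUN* (chr1:58776845-58784048, minus strand), the strongest activator among the JUN proteins, was the 1 gene that rose. Its levels were 72.7, 80.0 and 78.9 CPM in Control and 125, 121 and 163 CPM in CTCFL-KD, so that the lowest CTCFL-KD library was above the highest Control library. It rose 1.77-fold (log2 fold change 0.82, SE 0.18, adjusted p = 0.00433, edgeR) and was under the threshold of a DEG. *EGR1* (chr5:138465479-138469303, plus strand), a zinc finger factor of the serum response, had 13.3, 12.6 and 14.6 CPM in Control and 15.8, 22.1 and 27.3 CPM in CTCFL-KD. The groups did not overlap, but the adjusted p was 0.0535 (log2 fold change 0.69, SE 0.26, edgeR). It passed without CTCFL-KD replicate 1 (log2 fold change 0.87, adjusted p = 0.00734) and without CTCFL-OE replicate 1 (log2 fold change 0.68, adjusted p = 0.0324, edgeR).

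*JUND* and *IER2* differed within the CTCFL-KD group more than between groups. *JUND* (chr19:18279694-18281622, minus strand) had 83.2, 73.2 and 80.6 CPM in Control and 201, 77.0 and 89.2 CPM in CTCFL-KD. *IER2* (chr19:13150411-13154911, plus strand), an early gene of the growth factor response, had 23.7, 25.5 and 21.0 CPM in Control and 44.4, 22.1 and 22.3 CPM in CTCFL-KD. Replicate 1 was the high library for both, 2.42 times the mean of the other two for *JUND* and 2.00 times for *IER2*, and the groups overlapped. Neither passed the test (*JUND* log2 fold change 0.63, adjusted p = 0.132, and *IER2* 0.33, adjusted p = 0.331, edgeR). Without that library the log2 fold changes were 0.08 for *JUND* and -0.07 for *IER2*, and without CTCFL-KD replicate 2 *JUND* passed (log2 fold change 0.88, adjusted p = 0.0395, edgeR). *FOS* (chr14:75278826-75282230, plus strand) had 5.56, 4.70 and 4.51 CPM in Control and 5.41, 4.76 and 9.75 CPM in CTCFL-KD, and *FOSB* (chr19:45467995-45475179, plus strand) had 1.35, 1.20 and 1.01 against 1.53, 1.43 and 1.04 CPM. Both overlapped between the groups, with 95% intervals of the log2 fold change from -0.25 to 1.13 for *FOS* and from -0.57 to 0.86 for *FOSB*.

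**Figure D2:**
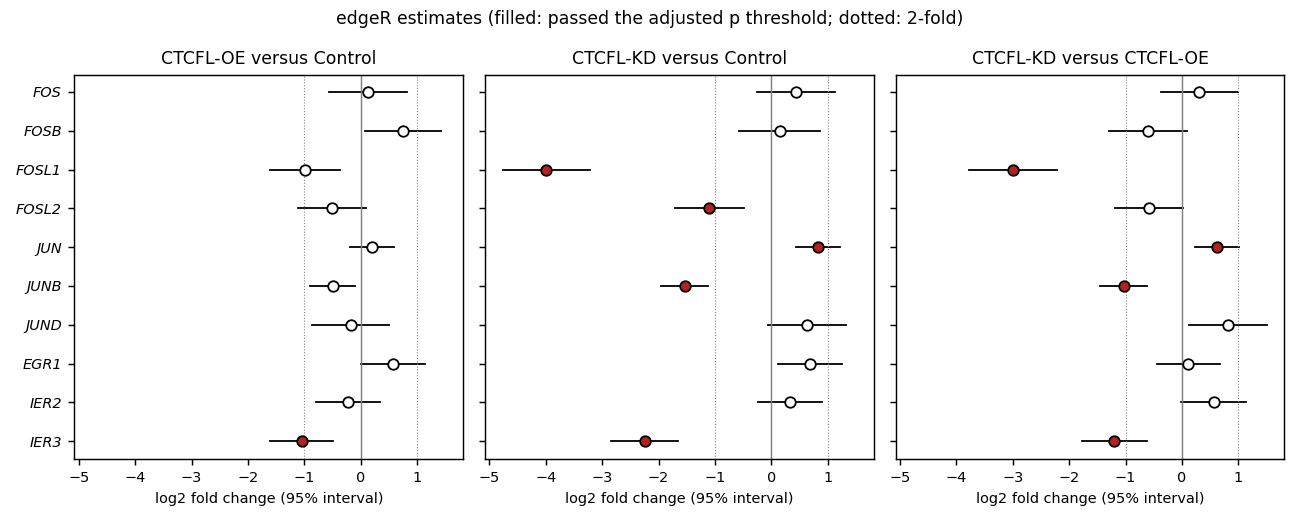
Log2 fold change of the 10 genes against Control in CTCFL-OE and CTCFL-KD, with points for the estimate of the edgeR fit and bars for the 95% interval. *FOSL1*, *IER3*, *JUNB* and *FOSL2* were lower in both groups, with log2 fold changes from -1.05 to -0.50 in CTCFL-OE and from -3.99 to -1.10 in CTCFL-KD, and of the CTCFL-OE values that of *IER3* passed the test.

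In CTCFL-OE the same 4 genes had lower values than Control in every library, though *IER3* alone passed the test, which here was an adjusted p under 0.1. Of the 10 genes, 1 passed as lower, against 1.16% of all genes tested, and 0 as higher, against 1.99%. There was 1 DEG, against 2.07%. At an unadjusted p under 0.05 there were 5 genes, against 17.7% of all genes, and 3 passed with DESeq2 (*FOSL1*, *IER3* and *JUNB*), against 7.62% of the genes it tested. Groups did not overlap for 6 genes, 4 lower and 2 higher, against 37.1% of all genes. The median log2 fold change was -0.20 over the 10 genes and -0.01 over all genes tested. The Control libraries are the same as in the comparison with CTCFL-KD, so the directions of the 2 comparisons are not independent of each other.

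*IER3* had 20.6, 22.0 and 41.2 CPM in CTCFL-OE, of which the third library was nearest to the Control values of 56.3 to 59.6. It was 2.07-fold lower (log2 fold change -1.05, SE 0.26, adjusted p = 0.0795, edgeR). The call was lost when any of the 3 Control libraries was left out, with adjusted p-values of 0.283, 0.254 and 0.282 and log2 fold changes of -1.03, -1.06 and -1.07 for replicates 1, 2 and 3 (edgeR). It was also lost without CTCFL-OE replicate 2 (log2 fold change -0.91, adjusted p = 0.333) or CTCFL-KD replicate 2 (log2 fold change -1.02, adjusted p = 0.105, edgeR). *FOSL1* had 3.79, 5.43 and 8.42 CPM in CTCFL-OE, all below the lowest Control value of 9.99 CPM (log2 fold change -0.99, SE 0.28, adjusted p = 0.118, edgeR). *JUNB* had 39.7, 51.0 and 47.6 CPM (log2 fold change -0.50, SE 0.18, adjusted p = 0.198) and *FOSL2* 128, 158 and 170 CPM (log2 fold change -0.51, SE 0.27, adjusted p = 0.352). The *JUNB* values lay between those of Control and CTCFL-KD, whereas the *FOSL2* values overlapped with CTCFL-KD.

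*FOSB* and *EGR1* were above Control in every CTCFL-OE library without passing the test. *EGR1* had 27.1, 15.0 and 18.2 CPM, its highest value in replicate 1 (log2 fold change 0.57, SE 0.25, adjusted p = 0.273, and 0.29 without that library, edgeR). *FOSB* had 1.82, 1.41 and 2.83 CPM, on 27 to 46 counts (log2 fold change 0.75, SE 0.31, adjusted p = 0.238, and 0.44 without replicate 3, edgeR). *FOSB* lies within the span of *ERCC1* on the opposite strand, so that the limit given for *JUNB* holds for it too. The remaining genes overlapped with Control. *JUN* had 77.7, 93.1 and 94.6 CPM, *JUND* 72.4, 61.2 and 75.8, *IER2* 18.6, 21.6 and 19.7 and *FOS* 7.43, 4.13 and 4.55. When CTCFL-KD replicate 1 was left out of the fit, 6 genes passed in CTCFL-OE (*FOSB*, *FOSL1*, *FOSL2*, *JUNB*, *EGR1* and *IER3*), 4 as lower and 2 as higher, in a fit where 13.4% of all genes passed as lower and 14.0% as higher. The count was 0 without any one of the 3 Control libraries, CTCFL-OE replicate 2 or CTCFL-KD replicate 2, and it was 2 without CTCFL-OE replicate 3, where *FOSL1* also passed (log2 fold change -1.34, adjusted p = 0.0919, edgeR). DEGs over all genes, 368 with all libraries, numbered 44 to 61 without a Control library, 79 without CTCFL-OE replicate 2 and 109 without CTCFL-OE replicate 3. They numbered 328 without CTCFL-KD replicate 2 and 321 without CTCFL-KD replicate 3. The number was higher without CTCFL-KD replicate 1, at 980, and without CTCFL-OE replicate 1, at 1184.

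CTCFL-KD was compared directly with CTCFL-OE to test whether the conditions differed from each other. *FOSL1* was 7.99-fold lower in CTCFL-KD than in CTCFL-OE (log2 fold change -3.0, SE 0.35, adjusted p = 0.000188, edgeR). *IER3* was 2.29-fold lower (log2 fold change -1.20, SE 0.26, adjusted p = 0.00709) and *JUNB* 2.05-fold lower (log2 fold change -1.04, SE 0.19, adjusted p = 0.00238). *JUN* was 1.54-fold higher (log2 fold change 0.63, SE 0.18, adjusted p = 0.0235). *FOSL2* did not pass (log2 fold change -0.58, 95% interval -1.19 to 0.02, adjusted p = 0.137), and its CTCFL-KD and CTCFL-OE ranges overlapped. Thus 3 of the 10 genes passed as lower, against 11.5% of all genes, 1 as higher, against 15.3%, and 3 were DEGs, against 17.0%. Groups did not overlap for 6, against 39.8%, and the median log2 fold change was -0.24 over the 10 genes and 0.04 over all. *JUND* and *IER2* were higher in every CTCFL-KD library than in every CTCFL-OE library (*JUND* log2 fold change 0.81, adjusted p = 0.0777, and *IER2* 0.56, adjusted p = 0.131, edgeR). Without CTCFL-KD replicate 1 these log2 fold changes were 0.25 and 0.15, and that of *FOSL2* was -0.30 (adjusted p = 0.133, 0.35 and 0.148, edgeR). *FOS*, *FOSB* and *EGR1* overlapped, with log2 fold changes of 0.31, -0.60 and 0.11. Leaving out 1 library ended the call on *JUN* for CTCFL-KD replicate 3 and CTCFL-OE replicates 1 and 2 (adjusted p = 0.086, 0.0608 and 0.0635, with log2 fold changes of 0.48, 0.54 and 0.66, edgeR). It brought *FOSL2* past the threshold without CTCFL-KD replicate 3 (adjusted p = 0.0392), and *JUND* without CTCFL-KD replicate 2 or 3 (adjusted p = 0.0285 and 0.0482, edgeR).

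The makeup of each family per library gives the balance of subunits. The summed FOS family level was 38.3 ± 0.870 CPM per kb in Control, 26.4 ± 3.82 under CTCFL-OE and 16.9 ± 6.25 under CTCFL-KD (SD, n = 3 each). *FOSL2* made up 79.3 ± 2.42% of it in Control, 80.5 ± 2.46% under CTCFL-OE and 82.9 ± 5.86% under CTCFL-KD, so that its share differed by less than the spread between CTCFL-KD libraries. The *FOSL1* share was 16.1 ± 2.03%, 11.5 ± 3.0% and 2.78 ± 1.90%, and the *FOS* share 4.04 ± 0.449%, 6.65 ± 3.20% and 12.7 ± 3.64%. These shares depend on the length used. With the median transcript length the *FOS* share was 7.47, 11.8 and 21.2%, and the order of the *FOSL2* means turned. The larger *FOS* share in CTCFL-KD went with a smaller family sum. It also went with a higher mean *FOS* level, 2.08 against 1.55 CPM per kb in Control, a difference that did not pass the test. In CTCFL-KD replicates 1, 2 and 3 the *FOSL1* share was 4.96, 1.86 and 1.51%.

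The JUN family sum overlapped between Control and CTCFL-KD. It was 97.8 ± 4.05 CPM per kb in Control, 85.8 ± 5.37 under CTCFL-OE and 114 ± 36.2 under CTCFL-KD, where *JUND* in replicate 1 gave the wide spread. *JUNB* made up 36.4 ± 0.680% of it in Control, 29.3 ± 2.99% under CTCFL-OE and 11.2 ± 1.82% under CTCFL-KD. *JUN* made up 21.8 ± 1.76%, 28.4 ± 1.78% and 35.4 ± 11.5%, with 22.4, 39.6 and 44.2% in CTCFL-KD replicates 1, 2 and 3. The ratio of *JUNB* to *JUN* per kb was 1.81, 1.51 and 1.71 in Control, 1.01, 1.08 and 0.996 under CTCFL-OE, and 0.438, 0.334 and 0.236 under CTCFL-KD. The 3 groups did not overlap in this ratio, which is given as a description because it was formed from genes already compared above.

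**Figure D3:**
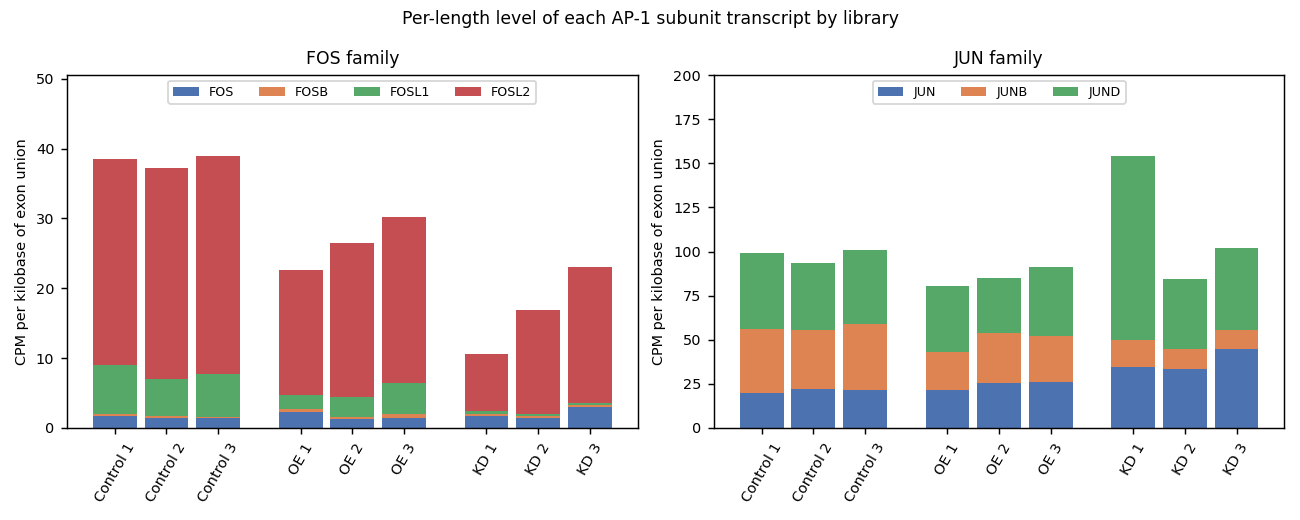
Level of each gene of the FOS family and of the JUN family in each of the 9 libraries, as stacked bars in CPM per kb of exon union. As a share of the family sum, *FOSL1* is smallest in CTCFL-KD (2.78 ± 1.90%). The *JUNB* share of its family sum is 36.4 ± 0.680% in Control, 29.3 ± 2.99% under CTCFL-OE and 11.2 ± 1.82% under CTCFL-KD.

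Genes around AP-1 were described from lists of bZIP partners, other immediate early genes, upstream kinases and SRF/ELK factors, textbook AP-1 targets and heat shock genes. Of the AP-1 targets, 20 of 24 were tested. In CTCFL-KD 11 passed as lower and 1 (*AREG*) as higher, where 16.8% of all genes passed as lower and 21.4% as higher. The list median was -1.07 on the log2 scale, against 0.08 over all genes. *CXCL8*, a neutrophil chemokine, fell from 35.9 ± 0.956 CPM in Control to 2.04 ± 1.11 in CTCFL-KD (log2 fold change -4.08, SE 0.42, adjusted p = 4.89e-05, edgeR). The hyaluronan receptor *CD44* fell from 63.7 ± 1.43 to 8.74 ± 0.582 CPM (log2 fold change -2.87, SE 0.41, adjusted p = 0.000398), and the keratin gene *KRT16* fell by 2.62 on the log2 scale, or by 3.52 without CTCFL-KD replicate 1. In CTCFL-OE 4 of the 20 passed as lower and 0 as higher, where 1.16% of all genes passed as lower and 1.99% as higher, with a list median of -0.49. They included *CXCL8* (log2 fold change -2.09, adjusted p = 0.0286) and the matrix metalloproteinases *MMP10* (-2.68, adjusted p = 0.0017) and *MMP1* (-2.10, adjusted p = 0.0111, edgeR). The sum over the list was 947 to 984 CPM in Control, 582 to 788 under CTCFL-OE and 354 to 369 under CTCFL-KD, with no overlap between groups. The cyclin gene *CCND1* was the largest part of it, at 484, 287 and 99.7 CPM. Not all targets followed this order. *AREG* and *HBEGF* averaged 2.57 and 2.71 CPM in Control and 5.08 and 4.58 CPM in CTCFL-KD, and of these *AREG* passed. *MMP10* was higher in CTCFL-KD than in CTCFL-OE (log2 fold change 2.29, adjusted p = 0.00013, edgeR).

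Of the other immediate early genes, 26 of 30 were tested. In CTCFL-KD 3 passed as higher and 6 as lower, where 21.4% and 16.8% of all genes did, with a median of -0.01. *KLF10*, a TGF-beta-induced zinc finger gene, fell from 77.2 ± 3.65 to 17.0 ± 5.13 CPM (log2 fold change -2.18, adjusted p = 6.1e-05), and *ZFP36*, whose protein destabilises AU-rich mRNAs, rose from 31.6 ± 0.950 to 80.3 ± 10.3 CPM (log2 fold change 1.34, adjusted p = 0.000225, edgeR). *KLF6* and *IER5* fell by 1.23 and 1.18 on the log2 scale. Without CTCFL-KD replicate 1, *KLF6* had a log2 fold change of -0.85, and 8 genes of the list passed as higher and 7 as lower, where 26.2% and 23.7% of all genes did. In CTCFL-OE 2 passed as higher and 0 as lower, where 1.99% and 1.16% of all genes did. *EGR3*, a relative of *EGR1*, rose from 0.827 ± 0.278 to 3.17 ± 0.942 CPM (log2 fold change 1.93, SE 0.39, adjusted p = 0.0463, edgeR).

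Among the upstream kinases and SRF/ELK factors, 9 of 22 passed as lower and 0 as higher in CTCFL-KD, with a list median of -0.43. The counts of this and the following lists are read against the same 16.8% lower and 21.4% higher of all genes in CTCFL-KD, and 1.16% and 1.99% in CTCFL-OE. *ELK3*, an ETS factor that works with SRF, fell from 31.0 ± 1.05 to 10.2 ± 4.08 CPM (log2 fold change -1.59, SE 0.29, adjusted p = 0.00175), and the ERK-activated kinase gene *RPS6KA3* from 76.4 ± 4.74 to 30.9 ± 14.4 CPM (log2 fold change -1.30, adjusted p = 0.0115, edgeR). Without CTCFL-KD replicate 1 the log2 fold change of *RPS6KA3* was -0.96, under the threshold of a DEG. In CTCFL-OE 1 of the 22 passed, as lower. Of the bZIP partners 13 of 16 were tested, of which 2 passed as higher and 4 as lower in CTCFL-KD and 0 passed in CTCFL-OE. Among 12 heat shock genes, 5 passed as lower and 1 as higher in CTCFL-KD, including *HSPH1* (log2 fold change -1.17, adjusted p = 0.000334, edgeR), and 0 passed in CTCFL-OE. Without CTCFL-KD replicate 1, when 13.4% of all genes passed as lower and 14.0% as higher in CTCFL-OE, 5 bZIP partners, 7 heat shock genes, 7 upstream genes, 10 AP-1 targets and 5 other immediate early genes passed as lower, and 1 upstream gene and 4 other immediate early genes as higher. In CTCFL-KD, with 23.7% of all genes lower and 26.2% higher, 6 bZIP partners, 9 heat shock genes, 12 upstream genes and 12 AP-1 targets then passed as lower, and 3, 1, 1 and 2 of these lists as higher.

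**Figure D4:**
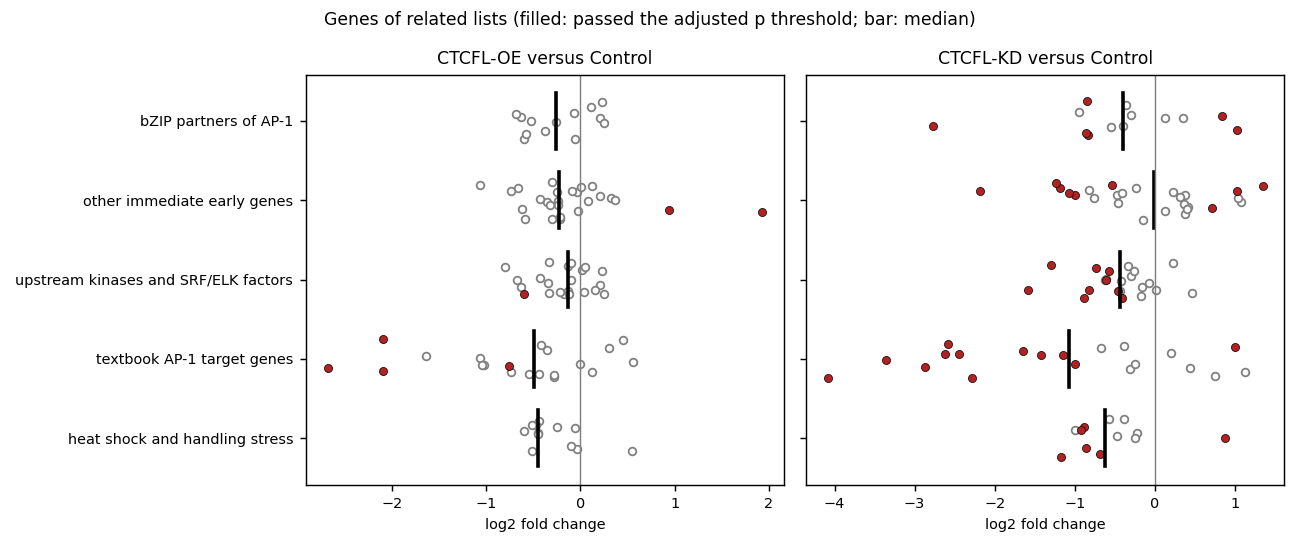
Log2 fold changes of the tested genes of each related list against Control in CTCFL-OE and CTCFL-KD, with a point per gene and a bar at the list median. The textbook AP-1 targets have the lowest median in CTCFL-KD, -1.07 on the log2 scale, against 0.08 over all genes tested.

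The genes most like *FOSL1*, *JUNB* and *IER3*, the members with the lowest adjusted p in CTCFL-KD, were sought by Pearson correlation of log2 CPM across the 9 libraries, over 11622 genes with a mean of at least 5 CPM. The libraries share 3 groups, so any gene with the same order of groups scores highly, and the values describe likeness only. *FOSL1* was closest to *DLX2* (r = 0.991), *PDGFB* (0.990) and *HR* (0.989). *IER3* was closest to *WNT7A* (r = 0.984), *TGFBI* (0.983) and *PMEPA1* (0.982), and *JUNB* to *SHROOM1* (r = 0.994), *PARP12* (0.992) and *ID1* (0.990). *TGFBI* and *PMEPA1* are genes known to be induced by TGF-beta. *TGFBI* averaged 85.4 CPM in Control, 15.1 under CTCFL-OE and 1.99 under CTCFL-KD, and *PMEPA1* 185, 40.7 and 14.7 CPM, the same order as *IER3*.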

How the data were processed

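RNA-seq of OVCAR3 cells was analysed from 9 libraries, 3 per group, grouped by their labels. The authors trimmed reads with Trimmomatic, aligned them to GRCh38 with STAR (kallisto is also listed in their processing notes) and deposited raw counts per gene from featureCounts. Library preparation kept strand. The annotation release and the strand and multimapping settings are not given in the sources used here. Each replicate pooled 3 technical replicates.

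Counts were tested with edgeR 4.0.16 in R 4.3.3 (filterByExpr, TMM scaling, robust quasi-likelihood fit of all 9 libraries with group as the only factor, two-sided, Benjamini-Hochberg adjustment over 17794 genes). Thresholds were an adjusted p under 0.1 in CTCFL-OE versus Control and under 0.05 in the other comparisons, and for DEGs a log2 fold change beyond 1. SE was derived from the log2 fold change and the square root of F. DESeq2 1.42.0 was an alternative, with other scalings, no filter, a replicate block, length and GC offsets and each library left out. Self-tests on simulated counts were run first. Symbols and lengths came from GENCODE 44, which named 60419 of 60660 identifiers. CPM per kb used the union of exons. Intervals cover the spread between samples, and floors the counting error only.

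The 10 genes, the related lists and the motifs were chosen with earlier results of these data known. All 10 genes are named. From each related list, up to 4 DEGs per comparison with at least 1 CPM in a group were eligible, by size of change, and for the 3 genes with the lowest adjusted p in CTCFL-KD the 3 most correlated genes. Some eligible genes are not reported here. *PAX8*, *WT1*, *COL1A1*, *COL1A2*, *POSTN* and *COL3A1* were added as marker checks, *CCND1*, *AREG* and *HBEGF* as AP-1 targets, and *HOOK2* and *ERCC1* as overlapping genes, after their values were seen. Same-numbered Control and CTCFL-KD libraries deviated together (correlations of 0.398, 0.225 and 0.282 over 11622 genes), whereas those of Control and CTCFL-OE were -0.042, 0.239 and -0.048. The labels number the replicates but name no shared day or batch.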

Additional observations from a re-analysis of the deposited data

How the results depend on the processing

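In CTCFL-KD versus Control, *FOSL1*, *FOSL2*, *JUN*, *JUNB* and *IER3* passed the test in 17 of 17 alternatives, with log2 fold changes of -4.31 to -3.84, -1.40 to -0.82, 0.62 to 0.91, -1.93 to -1.44 and -2.58 to -2.12. In CTCFL-KD versus CTCFL-OE, *FOSL1*, *JUNB* and *IER3* passed in 17 of 17 and *JUN* in 12 of 17. *FOSL2* there passed in 4 of 17, among them without the low-count filter (adjusted p = 0.0457), with length and GC offsets (0.0406) and with the offsets and the replicate block (0.0193, edgeR), and *JUND* in 3 of 17, also without the filter (log2 fold change 0.71, adjusted p = 0.0178, edgeR). *JUND* in CTCFL-KD versus Control had a log2 fold change of 0.0174 with length and GC offsets. *EGR1* in CTCFL-KD versus Control passed in 5 of 17 (log2 fold change 0.48 to 0.87, adjusted p 0.00734 to 0.183, edgeR and DESeq2). *IER3* in CTCFL-OE passed in 12 of 17 (log2 fold change -1.44 to -0.88, adjusted p 0.000968 to 0.333, edgeR and DESeq2). In CTCFL-OE versus Control the genes passing, 1 in the main analysis, numbered 3 with DESeq2 (against 7.62% of all genes), 5 when only those 2 groups were fitted, 2 without the low-count filter, 3 with length and GC offsets and 3 with the offsets and the replicate block, and 0 to 6 when a library was left out. For the fits other than DESeq2, the share of all genes passing is not given in this section. DEGs over all genes follow a stricter rule than passing. They were 368 in CTCFL-OE in the main analysis, and numbered 545 with DESeq2, 835 in the fit of 2 groups and 826 without the filter. They numbered 545 with the offsets, 528 with the offsets and the block, and 44 to 1184 when a library was left out. The cause was not tested.

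With the replicate block, 1, 5 and 4 of the 10 genes passed in CTCFL-OE, CTCFL-KD and CTCFL-KD versus CTCFL-OE, and the block changed no call on a member. The share of all genes passing with the block is not given here. DEGs over all genes, a stricter rule than passing, numbered 302, 4027 and 2963, against 368, 4132 and 3032 in the main analysis. For Control and CTCFL-KD, libraries of the same number deviated together (correlations of 0.398, 0.225 and 0.282). Of those with unlike numbers, CTCFL-KD replicate 2 had 0.168 with Control replicate 3, and CTCFL-KD replicate 3 had 0.085 with Control replicate 2. The rest had -0.399 to -0.163. With 3 libraries a group, these values do not establish a pairing. For Control and CTCFL-OE, and for CTCFL-OE and CTCFL-KD, the libraries share only a number.

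Directions turned for values that never passed. *FOS* in CTCFL-OE was -0.19 without CTCFL-OE replicate 1, the lowest of -0.19 to 0.29. In CTCFL-KD, *FOSB* was -0.0542 with the offsets and -0.0497 with the offsets and the block. *IER2* was -0.0549 and -0.0696 in these, and -0.0740 to 0.51 when a library was left out. Between CTCFL-KD and CTCFL-OE, *EGR1* was -0.0124 with the offsets and -0.0860 to 0.39 when a library was left out, and *FOS* was -0.0896 to 0.62. With the median transcript length in place of the exon union, the *FOSL2* share was 80.1, 78.8 and 75.8% for Control, CTCFL-OE and CTCFL-KD, so that the order of its means turned, the *FOS* share was 7.47, 11.8 and 21.2%, and the *JUNB* share was 28.6, 23.0 and 8.27%. Depth limits *FOSL1* in CTCFL-KD, at 10 to 12 counts, and *FOSB*, at 17 to 46 counts a library.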
